A study of Mus musculus with 24 samples.

Results

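Hmga2 and 5 further genes of fetal growth programmes, Hmga1, Igf2bp1, Igf2bp2, Igf2bp3 and Lin28b, are described here across all 24 libraries of a study on mouse embryonic fibroblasts. The 6 genes are rows of a count table of 47480 genes. They were selected on measured values: the selection names a rise of Hmga2 with siCop1 and, in siCTRL cells, a rise with KL001, so these differences are given below as levels and fold changes with no test. The response to Dexa was not part of the selection and was tested.

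All groups were wild-type mouse embryonic fibroblasts, cultured cells that grow out of dissociated embryos. The 8 groups crossed siCTRL (a control small interfering RNA) or siCop1 (one directed against Cop1) with the solvent DMSO or the compound KL001, and with or without Dexa, a name kept as the labels write it. Each group held 3 libraries, so the controls of the full design are siCTRL cells in DMSO without Dexa. The sources used here give no doses, times, siRNA sequences or embryo age, and no label says whether replicates were separate cultures, so p-values measure only the spread between these libraries.

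HMGA proteins are small chromatin proteins that bind the minor groove of AT-rich DNA and bend it, and Hmga2 is known as a gene of embryonic growth that is silenced in most adult tissues. The 3 Igf2bp genes encode RNA-binding proteins that bind and stabilise mRNAs such as those of Igf2 and Myc, and IGF2BP proteins are also described as readers of m6A-modified RNA. LIN28B blocks the maturation of let-7 microRNAs, and let-7 in turn represses Hmga2, Lin28b and Igf2bp mRNAs. Cop1 is the substrate receptor of an ubiquitin ligase that degrades transcription factors of the ETS and AP-1 families, and KL001 stabilises the cryptochrome proteins of the circadian clock.

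The sequences of the 6 genes were compared for matches to the let-7 seed. Of 10 mature mouse let-7 sequences in RefSeq (build GRCm38.p6), 9 carry the seed GAGGUAG at bases 2 to 8, and mmu-let-7j carries GAGGUAU. Seeds are in capitals in the 2 sequences shown here, the first for the common seed and the second for the exception.
mmu-let-7a-5p: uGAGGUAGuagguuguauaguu
mmu-let-7j: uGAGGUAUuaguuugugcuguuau

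A match to the common seed, CTACCTC, was searched on the sense strand of the longest annotated 3' untranslated region of each gene in GENCODE release M21 (GRCm38). Hmga2, Igf2bp1 and Lin28b each held 4 matches, and Hmga1, Igf2bp2 and Igf2bp3 each held 1. Of 20717 genes with such a region of at least 30 bases, 9.06% held 1 or more matches and 32 genes, or 0.154%, held 3 or more. Untranslated regions of similar length (down to 0.8 times and up to the inverse of that) held at least as many matches in 0.124% of cases for Hmga2, 0.333% for Igf2bp1 and 0.297% for Lin28b. Each of these sets of regions includes the gene's own, which is counted in the share. For the genes with a single match the share was 8.14% for Hmga1, 12% for Igf2bp2 and 13.3% for Igf2bp3. A match is a description of the letters and not a measured site. The 4 matches of Hmga2 and the first match of each other gene are printed 5′ to 3′ on the gene's strand, with the seed match in capitals and with a following A in capitals where it is present (an 8mer).
Hmga2 at chr10:120364222-120364249 (-): ggcgccgacattcaatttCTACCTCAgc
Hmga2 at chr10:120362985-120363012 (-): aatccccactcctcaataCTACCTCtga
Hmga2 at chr10:120362547-120362574 (-): ttcctgatttgcaaggaaCTACCTCcac
Hmga2 at chr10:120361689-120361716 (-): tacaatcaaaacacactaCTACCTCtta
Hmga1 at chr17:27563274-27563301 (+): ttctcctctgttcacaaaCTACCTCtgg
Igf2bp1 at chr11:95961776-95961803 (-): agtgctgtgcgaagtaaaCTACCTCAag
Igf2bp2 at chr16:22059471-22059498 (-): aaaacacacaaataaaagCTACCTCAgg
Igf2bp3 at chr6:49086785-49086812 (-): acgtgcatttttactcaaCTACCTCAgg
Lin28b at chr10:45381020-45381047 (-): ttcacccgggcgggaagtCTACCTCAtg

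The genes lie at 5 chromosomes in GRCm38. Hmga2 spans chr10:120361275-120476469 on the minus strand and Lin28b spans chr10:45376620-45486395 on the same strand. Hmga1 is at chr17:27556497-27563674 (+), Igf2bp1 at chr11:95957163-96005940 (-), Igf2bp2 at chr16:22059009-22163299 (-) and Igf2bp3 at chr6:49085223-49214957 (-). All 6 are protein-coding. Igf2bp3 shares 1529 exon bases with Malsu1 on the opposite strand, which makes its counts uncertain, while Hmga2 shares 140 with 1700006J14Rik, Hmga1 102 with AI413582 and 22 with Gm49774, and Igf2bp1 43 with Gm29202, all on the opposite strand. The libraries were stranded, but no source used here gives the strand setting of the counting. Reads of such a stretch may have been counted for either gene or for neither.

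Libraries held 21409988 to 27875023 counts (median 25337292). Levels are CPM (read counts scaled to a common library size) on the TMM scale, which corrects for library composition. The targeted gene, listed as Rfwd2, was at 24.99 to 29.72 CPM in the 12 siCTRL libraries and at 4.33 to 5.79 CPM in the 12 siCop1 libraries, with no overlap. All 9 fibroblast markers were detected, and their sum ran from 35000 to 50800 CPM, although Dcn (at most 4.58 CPM) and Lum (at most 1.67 CPM) were low. Pou5f1 and Lin28a, which mark pluripotent cells, had 0 counts in all libraries. Nanog, another such marker, was detected at a low level (0.576 to 1.2 CPM in siCTRL and 0.348 to 0.855 CPM in siCop1). The 5 heart muscle markers summed to between 0.678 and 89.4 CPM in siCTRL libraries and to at most 2.72 CPM in siCop1 libraries. In bulk RNA, a change in the share of a cell type and a change in RNA per cell cannot be told apart.

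Hmga2 was the most abundant of the 6 genes per length. Its mean over groups was 63.8 CPM per kb of exon, against 22.2 for Igf2bp2, 13.1 for Igf2bp3, 11.4 for Hmga1 and 7.46 for Igf2bp1. The place of Hmga1 in this order is uncertain, because 55% of the 50-base windows in its transcripts also occur elsewhere in the annotated transcripts. Hmga2 collected 4837 to 17940 counts per library. The group means of Hmga2 spanned 3.29-fold and those of Hmga1 2.43-fold, whereas those of Igf2bp1 spanned 1.2-fold, Igf2bp2 1.23-fold and Igf2bp3 1.132-fold. Hmga2 and Hmga1 thus varied most across the groups.

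Lin28b was at or near the limit of detection. It had 5 counts in total, in 4 of 24 libraries, out of 600916142 counts, or 0.00832 CPM (exact 95% Poisson interval 0.0027 to 0.0194, which covers counting error only). The counts fell in siCTRL KL001 without Dexa (1), siCTRL KL001 with Dexa (1), siCop1 DMSO without Dexa (2) and siCop1 DMSO with Dexa (1). Its paralog Lin28a had 0 counts, which allows up to 0.00499 CPM (3 counts). Lin28b did not pass the filter on low counts and enters no test, and no difference in Lin28b was detectable at this depth. The 5 other genes passed.

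**Figure D1:**
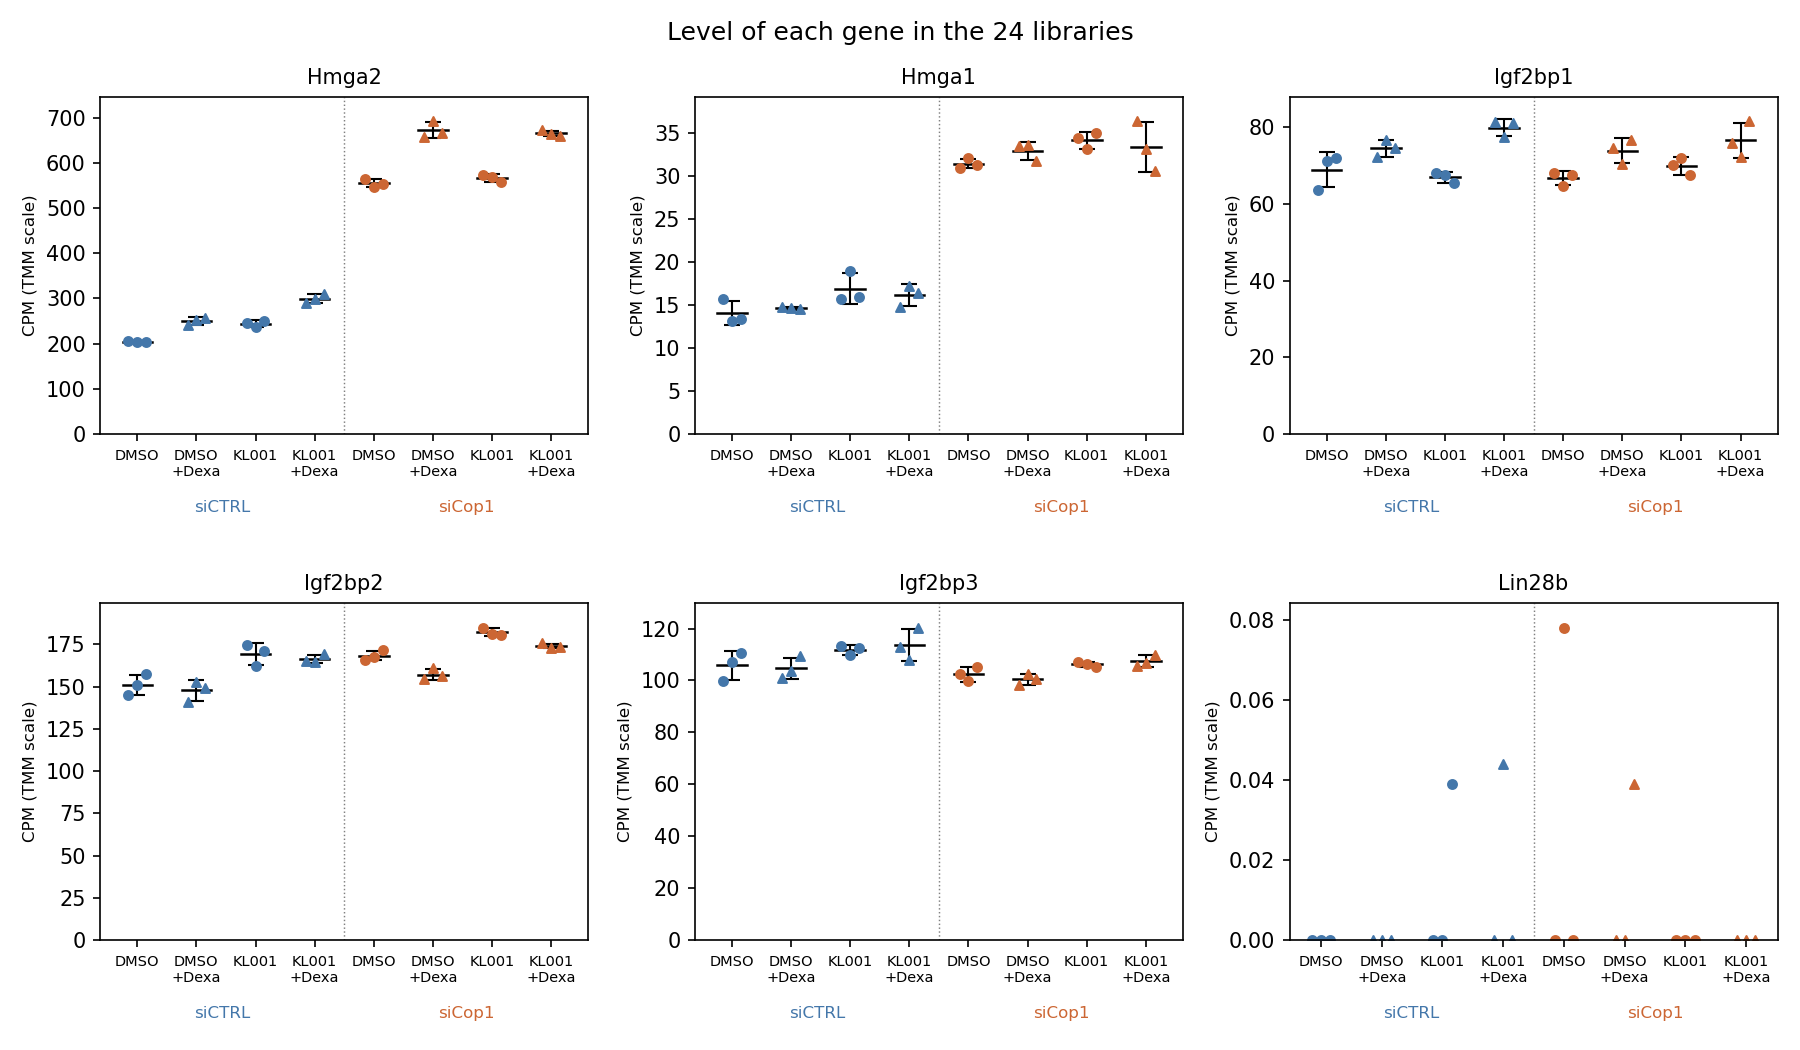
Level of each of the 6 genes (vertical axis, CPM on the TMM scale, from 0) in the 8 groups (horizontal axis), with blue for siCTRL, orange for siCop1, circles without Dexa and triangles with Dexa. Points are libraries, and black lines are the group mean ± SD (n = 3), left out for Lin28b. Hmga2 lies between 203 and 309.6 CPM in siCTRL and between 548 and 692 CPM in siCop1.

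Hmga2 stood at 206, 204 and 203 CPM in the 3 siCTRL libraries with DMSO and without Dexa. It stood at 564, 548 and 554 CPM in the matching siCop1 libraries. The lowest siCop1 library of any group (548 CPM) was above the highest siCTRL library of any group (309.6 CPM). With siCop1 the fitted level was 2.72 times that of siCTRL in DMSO without Dexa (log2 1.44 ± 0.03 SE) and 2.69 times with Dexa (log2 1.43 ± 0.03). In KL001 it was 2.32 times without Dexa (log2 1.21 ± 0.03) and 2.23 times with Dexa (log2 1.15 ± 0.03). These differences chose the gene and carry no test. Across all 14772 genes tested, siCop1 changed 29.4% in DMSO without Dexa and 31.1% with it, at an adjusted p below 0.05. In KL001 the shares were 32.7% and 30.1%.

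KL001 went with a smaller difference in Hmga2, and only the siCTRL libraries separated. In siCTRL cells without Dexa the KL001 libraries were at 246, 236 and 251 CPM, all above the 3 DMSO libraries. With Dexa they were at 289.9, 298 and 309.6 CPM against 241, 251 and 258 CPM in DMSO, again with no overlap. Both differences were 1.2-fold (log2 0.26 ± 0.03 SE each). In siCop1 cells the KL001 and DMSO libraries overlapped, at 573, 569 and 558 CPM against 564, 548 and 554 CPM without Dexa and at 672, 664 and 661 CPM against 658, 692 and 666 CPM with Dexa. Their log2 differences were 0.03 ± 0.03 and -0.01 ± 0.03. The difference between the KL001 effects in siCop1 and in siCTRL cells was -0.23 ± 0.04 log2 (SE) without Dexa and -0.27 ± 0.04 with Dexa. It is part of what selected the gene and was not tested. The siCop1, KL001 and Dexa comparisons share groups of libraries and are not independent of each other. KL001 changed 6.73% of all genes in siCTRL cells without Dexa and 10.6% with it. In siCop1 cells the shares were 4.09% and 5.46%.

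Dexa raised Hmga2 in all 4 settings, and this is the tested result. In siCTRL cells in DMSO it rose from 204 ± 1.77 to 250.2 ± 8.28 CPM (SD, n = 3), a change of 22.4% (log2 0.29 ± 0.03 SE, adjusted p 6.56e-09 by quasi-likelihood F-test in edgeR). In siCTRL cells in KL001 it rose from 244 ± 7.46 to 299 ± 9.9 CPM, also by 22.4% (adjusted p 5.32e-09). In siCop1 cells it rose from 555 ± 8.35 to 672 ± 17.4 CPM in DMSO (21%, adjusted p 1.02e-08) and from 567 ± 8.11 to 666 ± 5.81 CPM in KL001 (17.5%, adjusted p 2.34e-07). In each setting the 3 libraries with Dexa were above the 3 without. Dexa changed 26.8% of all genes in siCTRL DMSO, 26.8% in siCTRL KL001, 23.7% in siCop1 DMSO and 24.5% in siCop1 KL001, so a change with Dexa is common among genes of these cells.

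The Dexa change of Hmga2 was not shown to differ by siRNA or by compound, and the intervals bound any such difference. The siCop1 minus siCTRL difference of the Dexa effect was -0.02 log2 in DMSO (95% interval -0.099 to 0.067, adjusted p 0.973 by quasi-likelihood F-test in edgeR) and -0.06 in KL001 (-0.141 to 0.024, adjusted p 0.851). The KL001 minus DMSO difference was -1e-04 in siCTRL (-0.084 to 0.084, adjusted p 1) and -0.04 in siCop1 (-0.124 to 0.038, adjusted p 1). In CPM the step was larger in siCop1 cells, whose level without Dexa was higher. Of the 5 genes tested, 0 passed in any of these 4 differences by edgeR or by DESeq2. At an unadjusted p below 0.05 the count was 1 for KL001 in siCTRL (Igf2bp1) and 0 for the other 3. Over all genes, 0.67% changed in the siCop1 difference in DMSO, 0.562% in that in KL001, 0% in the KL001 difference in siCTRL and 0.0677% in that in siCop1. The count of 0 of 14772 genes for KL001 in siCTRL stood beside 888 genes at an unadjusted p below 0.05 and 2 genes by DESeq2.

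Ordered by group mean, Hmga2 ran from siCTRL DMSO without Dexa (204 CPM) through siCTRL KL001 without Dexa (244), siCTRL DMSO with Dexa (250.2) and siCTRL KL001 with Dexa (299) to siCop1 DMSO without Dexa (555), siCop1 KL001 without Dexa (567), siCop1 KL001 with Dexa (666) and siCop1 DMSO with Dexa (672). Neighbours whose libraries overlapped were the second and the third, the fifth and the sixth, and the seventh and the eighth. The other neighbours in this order did not overlap.

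Marker sums moved with some of these comparisons, and their part in the result was not tested. The summed fibroblast markers were lower with siCop1 (42270 to 43670 CPM against 48050 to 50770 CPM in DMSO without Dexa), and with KL001 in siCTRL without Dexa (40880 to 44890 CPM). With Dexa in siCTRL DMSO they were at 46630 to 47120 CPM. This sum was largely Col1a1 and Col1a2. Over all settings Col1a1 was at 18600 to 23500 CPM in siCTRL and 14700 to 18600 CPM in siCop1. Col1a2 was at 13000 to 16900 CPM and 11700 to 14800 CPM. Vim was not lower (4450 to 4990 CPM in siCTRL, 4810 to 5010 CPM in siCop1), and the ranges of the remaining fibroblast markers overlapped between the siRNAs. By Dexa, Pdgfra was at 57.6 to 88.2 CPM without and 125 to 175 CPM with it over all settings. Pdgfrb was at 414 to 468 CPM without and 258 to 303 CPM with Dexa. The ranges of the other fibroblast markers overlapped between libraries with and without Dexa. The 3 neural markers summed to 255 to 281 CPM without and 406 to 435 CPM with Dexa in siCTRL DMSO, nearly all of it Map2, which was at 217 CPM or more in every library, while Sox2 was at most at 0.905 CPM. The germ cell marker Ddx4 was at 1.47 to 3.03 CPM in siCTRL and 0.325 to 1.12 CPM in siCop1. Leaving out any 1 library kept the log2 Dexa change of Hmga2 between 0.22 and 0.33 and its siCop1 difference between 1.132 and 1.453. Every library of siCTRL DMSO without Dexa held heart muscle markers (summed to 16.75 to 58.62 CPM). Leaving out 1 library therefore does not remove them from that group, and their part was not tested.

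**Figure D2:**
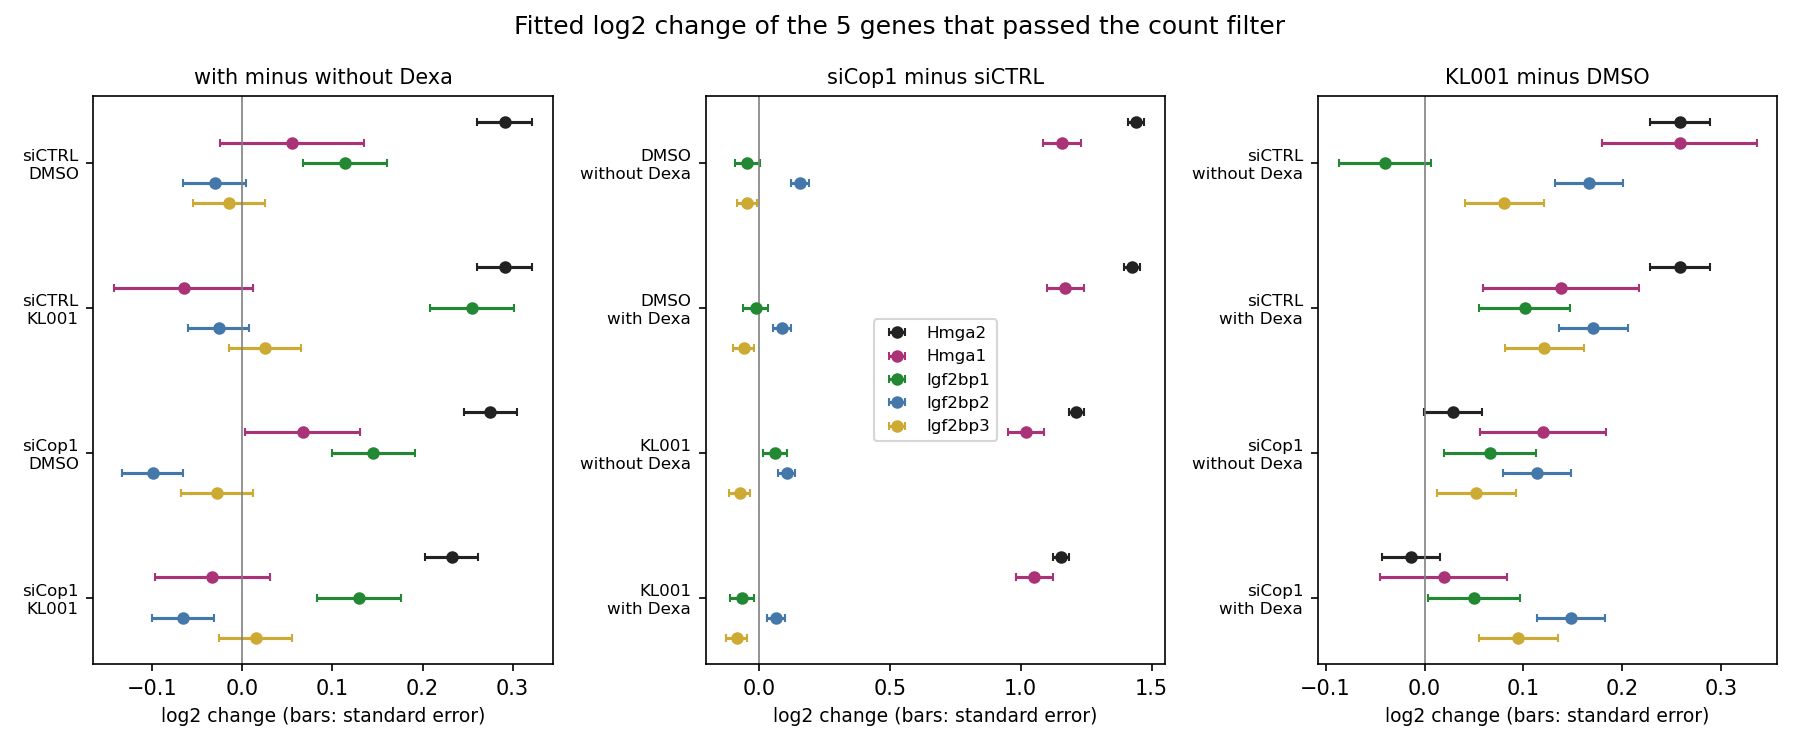
Fitted log2 change (horizontal axis) of Hmga2, Hmga1, Igf2bp1, Igf2bp2 and Igf2bp3 with Dexa (left), siCop1 (middle) and KL001 (right), each in 4 settings (vertical axis); points are estimates over 3 against 3 libraries, bars are standard errors, and the 3 horizontal scales differ. Hmga2 sits near 0.23 to 0.29 in all 4 Dexa settings, and Hmga2 and Hmga1 lie above 1 in the siCop1 panel.

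Hmga1, which encodes the other HMGA protein, was the only other member with a large difference between the siRNAs. It was at 15.7, 13.1 and 13.3 CPM in siCTRL and at 31.0, 32.1 and 31.3 CPM in siCop1 in DMSO without Dexa. Over all settings siCTRL libraries lay at 13.1 to 18.96 CPM and siCop1 libraries at 30.6 to 36.4 CPM, with no overlap. The log2 differences were 1.16 and 1.17 in DMSO, without and with Dexa, and 1.02 and 1.05 in KL001 (SE 0.07 each), or 2.03- to 2.25-fold. With KL001 its log2 difference was 0.26 ± 0.08 in siCTRL without Dexa, where the 3 KL001 libraries were above the DMSO libraries by a narrow margin (15.73 against 15.69 CPM), and 0.14 ± 0.08 with Dexa, where they overlapped. In siCop1 it was 0.12 ± 0.06 without Dexa, with all 3 KL001 libraries above the DMSO libraries, and 0.02 ± 0.06 with Dexa, with overlap. These values describe the siRNA and compound comparisons with no test.

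Hmga1 did not pass the test for Dexa in any setting. Its log2 changes were 0.05, -0.07, 0.07 and -0.03 in siCTRL DMSO, siCTRL KL001, siCop1 DMSO and siCop1 KL001, with adjusted p of 0.684, 0.618, 0.52 and 0.781 (edgeR's quasi-likelihood test) and overlapping libraries. The 95% intervals reached from -0.102 to 0.212 in siCTRL DMSO, from -0.216 to 0.086 in siCTRL KL001, from -0.058 to 0.192 in siCop1 DMSO and from -0.158 to 0.092 in siCop1 KL001.

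The counts of Hmga1 are uncertain, because 1403 of 2553 windows of 50 bases in its transcripts (55%) also occur elsewhere in the annotated transcripts and reads were 50 bases long. For Hmga2 the share was 0.768% and for Igf2bp1 0.444%, and Igf2bp2, Igf2bp3 and Lin28b shared 0 windows.

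The 3 Igf2bp genes differed little by siRNA. Igf2bp1 was at 63.7, 71.3 and 71.9 CPM in siCTRL and 68.1, 64.8 and 67.5 CPM in siCop1 in DMSO without Dexa, and its 4 log2 differences with siCop1 ran from -0.06 to 0.06 (SE 0.05 each). Igf2bp3 ran from -0.05 to -0.08 (SE 0.04 each), and its siCop1 libraries were all below the siCTRL libraries in KL001 without Dexa only. Igf2bp2 was higher by 0.16 ± 0.03 in DMSO without Dexa, by 0.09 ± 0.03 with Dexa, by 0.11 ± 0.03 in KL001 without Dexa and by 0.07 ± 0.03 with Dexa. Its siCop1 libraries lay above the siCTRL libraries in each of these comparisons (166, 168 and 171 CPM against 145, 151 and 157 CPM in DMSO without Dexa). Without siCTRL DMSO with Dexa replicate 1, the difference of 0.09 was 0.05. The share of all genes whose libraries separate by siRNA is not given here, so the separation is a description only. With siCop1, 29.4% to 32.7% of all genes changed at an adjusted p below 0.05.

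With KL001, Igf2bp2 was the Igf2bp gene whose libraries separated in all 4 settings. It was at 175, 162 and 171 CPM in KL001 against 145, 151 and 157 CPM in DMSO in siCTRL without Dexa (log2 0.17 ± 0.03), and its difference was 0.17 in siCTRL with Dexa. The siCop1 values were 0.11 without Dexa and 0.15 with it (SE 0.03 each). The difference of its KL001 effect between siCop1 and siCTRL cells was close to its error: -0.05 ± 0.05 without Dexa and -0.02 ± 0.05 with Dexa. Igf2bp3 was higher by 0.08, 0.12, 0.05 and 0.09 in the same order (SE 0.04 each), with overlapping libraries except in siCop1 with Dexa. Igf2bp1 differed by -0.04, 0.10, 0.07 and 0.05 (SE 0.05 each), with overlapping libraries except in siCTRL with Dexa. None of these carries a test, since KL001 was part of the selection. The share of all genes whose libraries separate in this way is not given here, so separation is a description only.

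Igf2bp1 was the other member that rose with Dexa. In siCTRL KL001 it went from 68.2, 67.5 and 65.4 CPM to 81.3, 77.4 and 81.1 CPM, a rise of 19.4% (log2 0.26 ± 0.05 SE, adjusted p 6.76e-05 by quasi-likelihood F-test in edgeR). In siCop1 DMSO it rose by 10.6%, from 68.1, 64.8 and 67.5 to 74.6, 70.3 and 76.8 CPM (adjusted p 0.0205), and in siCop1 KL001 by 9.39%, from 70.1, 72.1 and 67.7 to 75.97, 72.3 and 81.5 CPM (adjusted p 0.0402). In siCTRL DMSO the libraries with Dexa (72.3, 76.8 and 74.7 CPM) were above those without (63.7, 71.3 and 71.9 CPM), but the difference of 8.21% missed the threshold (adjusted p 0.0712). The larger value in KL001 than in DMSO within siCTRL was not shown to differ (difference 0.14 log2, 95% interval 0.013 to 0.27, unadjusted p 0.0403, adjusted p 0.81).

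Igf2bp2 and Igf2bp3 showed no rise with Dexa. Igf2bp2 fell in siCop1 DMSO, from 166, 168 and 171 to 154, 161 and 156 CPM (log2 -0.10 ± 0.03 SE, adjusted p 0.0327 by quasi-likelihood F-test in edgeR). Its other 3 log2 changes were -0.03 in siCTRL DMSO, -0.03 in siCTRL KL001 and -0.07 in siCop1 KL001 (adjusted p 0.583, 0.658 and 0.184). Igf2bp3 lay between -0.03 and 0.03 in the 4 settings, with adjusted p of 0.697 to 0.854, and the 95% interval reached from -0.106 to 0.103 at its widest bounds. Malsu1, whose exons overlap those of Igf2bp3, was at 11.3 to 17.7 CPM. In all, Dexa changed 1 of the 5 tested members in siCTRL DMSO, 2 in siCTRL KL001, 3 in siCop1 DMSO and 2 in siCop1 KL001, against the 23.7% to 26.8% of all genes given above. The median log2 change of the 5 was 0.06, 0.02, 0.07 and 0.02, against -0.01, -0.01, 0.002 and -3e-04 over all genes.

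The weaker Dexa calls hung on single libraries. The call of Igf2bp1 in siCop1 DMSO was lost without replicate 2 of the group without Dexa (adjusted p 0.106 by quasi-likelihood F-test in edgeR) or without replicate 1 (0.0652) or 3 (0.127) with Dexa. In siCop1 KL001 it was lost without replicate 1 or 3 of either group (adjusted p 0.0749 to 0.277) and in DESeq2 (0.0582). The call of Igf2bp2 in siCop1 DMSO was lost without replicate 2 or 3 without Dexa or replicate 1 or 3 with Dexa (adjusted p 0.064 to 0.129). In siCTRL DMSO, Igf2bp1 passed without replicate 2 or 3 without Dexa or replicate 1 with Dexa (adjusted p 0.0231 to 0.0382). The calls of Hmga2 in all 4 settings and of Igf2bp1 in siCTRL KL001 held in each alternative tried.

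The genes whose log2 CPM followed Hmga2 most closely over the 24 libraries, among 11607 genes with a mean of at least 1 CPM, were Erbb3, a receptor tyrosine kinase (Pearson r 0.994), Laptm4b, a lysosomal membrane protein (0.981), Arhgdib (0.974), Abcg2, an efflux transporter (0.973), and Ankrd6 (0.969). Erbb3 went from 10.3 CPM in siCTRL DMSO without Dexa to 34.7 CPM with siCop1 and to 45.6 CPM when Dexa was added to siCop1. For Hmga1, Arhgdib (0.989) and Ankrd6 (0.981) were among the closest. For Igf2bp1 they were Nfib, a transcription factor (0.932), Ddi2 (0.923) and Myo9b (0.906), for Igf2bp2 Atp11a (0.957), Elovl6 (0.949) and Gpnmb (0.921), and for Igf2bp3 Naa50 (0.876), Ipo5 (0.867) and Cyb5b (0.841). These correlations are descriptions: the points share 8 groups, and a gene that separates by siRNA will follow Hmga2. Hmga1 and Hmga2 correlated at 0.968 over the libraries and at -0.03 within groups. The neighbours depended on the measure: over group means 2 of the 5 of Hmga2, 2 of the 3 of Hmga1, 1 of the 3 of Igf2bp1 and 0 of the 3 of Igf2bp2 and of Igf2bp3 stayed, and by rank 2 of 5 for Hmga2, 0 of 3 for Hmga1 and 2 of 3 for each Igf2bp gene.

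The regions upstream of the start sites were compared for short motifs, because Hmga1 and Hmga2 were both higher with siCop1. The 250 bases upstream of Hmga2 (RefSeq start, GRCm38.p6, chr10:120476470-120476719, minus strand) are shown with the only motif match in capitals.
Hmga2 upstream: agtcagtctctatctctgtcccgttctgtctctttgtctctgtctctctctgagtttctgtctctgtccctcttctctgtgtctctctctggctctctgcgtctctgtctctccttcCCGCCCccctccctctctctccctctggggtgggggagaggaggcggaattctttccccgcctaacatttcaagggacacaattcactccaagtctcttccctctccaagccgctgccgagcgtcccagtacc

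Within 250 bases before and 50 after the start, both strands were searched for 6 motifs. The AP-1 motif, bound by Fos and Jun proteins, was read as TGANTCA and found in 7.81% of 32851 windows. The ETS motif was read as CCGGAAG and found in 8.86%. The E-box bound by clock proteins was read as CACGTG and found in 7.15%. The GC box bound by Sp1 was read as GGGCGG and found in 35.7%. The CCAAT box, named by its letters, was found in 37.4%. The glucocorticoid response element was searched as its palindromic consensus and found in 0.475%. Hmga2 held 1 GC box at -133, on the minus strand of the gene, and Hmga1 held 4 in each of its 2 windows, which overlap. The window of Igf2bp1 was not searched. Igf2bp2 held 2 GC boxes. Igf2bp3 held 2 E-boxes and a CCAAT, and Lin28b an E-box and a CCAAT. A match or its absence says only which letters this window holds.

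Genes around these 6 were followed in 7 lists. With siCop1, 29.4% of all genes changed in DMSO without Dexa and 31.1% with it, and 32.7% in KL001 without Dexa and 30.1% with it, and the counts of each list are given in that order of settings. The first was the machinery that makes and degrades let-7 (13 of 14 genes tested). With siCop1, 2 of 13 were higher in DMSO without Dexa and 3 with it, and the counts in KL001 were again 2 and 3. In each setting 0 were lower, and 3 or 4 of the 13 passed at an unadjusted p below 0.05. By edgeR these shares (15.4% and 23.1%) were below the share of all genes in each comparison. Dicer1, which cuts the let-7 hairpin, and Ago1, which loads the mature strand, made up the higher genes in each setting (Dicer1 73.0 ± 6.03 to 86.4 ± 1.44 CPM, adjusted p 0.00162, and Ago1 85.8 ± 5.61 to 103 ± 1.31 CPM, adjusted p 1.2e-04, in DMSO without Dexa), joined by Zcchc11 in DMSO with Dexa and Prkra in KL001 with Dexa, the latter lost without replicate 1 or 2 of siCTRL or 3 of siCop1 (adjusted p up to 0.0956). Without siCTRL KL001 without Dexa replicate 1, the count in KL001 without Dexa was 5, and with no filter on low counts it was 4. With Dexa, Ago1 fell in all 4 settings (to 70.0 ± 5.7 CPM in siCTRL DMSO, adjusted p 4.56e-05), but the call was lost in siCTRL KL001 without replicate 1 of the group without Dexa (adjusted p 0.0666), and in siCop1 KL001 without replicate 1 or 2 of that group or replicate 2 with Dexa (adjusted p up to 0.119). The 11 let-7 hairpin rows together had 285 counts, and 0 passed the filter. Mature let-7 is too short for these libraries and was not measured.

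Described let-7 target genes outside the members moved in both directions with siCop1. Of 19 tested, 3 were higher and 5 lower in DMSO without Dexa and 4 and 4 with it, and in KL001 5 and 4 without and 4 and 5 with Dexa (median log2 0.001, 0.02, 0.06 and 0.02, against -0.01, 0.001, -0.01 and -0.002 over all genes). The shares changed were 42.1%, 42.1%, 47.4% and 47.4%, above those of all genes. Myc, a growth regulator and IGF2BP-bound mRNA, was higher in all 4 (53.1 ± 1.2 to 68.1 ± 0.594 CPM in DMSO without Dexa, adjusted p 4.46e-08), as was Plagl2 (28.8 ± 2.41 to 33.5 ± 1.45 CPM, adjusted p 0.00825). Ccnd2 (cyclin D2), Hras and Insr (the insulin receptor) were lower in all 4 in the reported fit, Ccnd2 from 889 ± 77.3 to 739 ± 22.5 CPM (adjusted p 0.00316 by quasi-likelihood F-test in edgeR, as for each adjusted p in this paragraph). The call of Hras in DMSO without Dexa and that of Insr in KL001 without Dexa were each lost in 8 of 12 alternatives, DESeq2 and RLE scaling among them (adjusted p up to 0.344 and 0.384). The call of Ccnd2 in DMSO with Dexa was lost without replicate 2 of either group, and that of Plagl2 in DMSO without Dexa without replicate 1 of siCTRL and in KL001 with Dexa without replicate 1 or 3 of siCTRL or 3 of siCop1. In DMSO without Dexa the count of 8 was 5 without replicate 1 or 2 of siCTRL, without replicate 2 or 3 of siCop1, or with no filter on low counts. Among all genes, those with 3 or more seed matches (23 tested besides the members) had median log2 differences with siCop1 of 0.02, 0.03, 0.13 and 0.03 in that order of settings, and those with no match (11259 genes) -0.01, 0, -0.01 and -0.003. Of the 23, 9, 11, 13 and 7 changed (39.1%, 47.8%, 56.5% and 30.4%, against 32.2%, 33.8%, 35.6% and 32.8% of the genes with no match), with 6, 7, 9 and 3 higher and 3, 4, 4 and 4 lower. With Dexa, Ccnd2 fell and Insr rose in all 4 settings (Ccnd2 889 ± 77.3 to 614 ± 45.4 CPM, adjusted p 1.47e-06, and Insr 59.5 ± 3.08 to 71.2 ± 2.78 CPM, adjusted p 8.49e-04, in siCTRL DMSO), though Insr in siCop1 DMSO was lost without replicate 1 or 2 of the group without Dexa or replicate 3 with Dexa. Irs2 and Thbs1 also changed with Dexa in all 4 settings (adjusted p 1.8e-08 and 9.42e-10 in siCTRL DMSO). Their calls held in each alternative.

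Several imprinted fetal growth genes fell with siCop1, under which the level of Hmga2 was higher. The list tested 10 genes and also holds Plag1, which is not known to be imprinted. With siCop1, Plag1 passed only in KL001 without Dexa. Of the 10 tested, 0 were higher and 5 lower in DMSO without Dexa and again with Dexa, 1 higher and 4 lower in KL001 without Dexa, and 0 higher and 3 lower once Dexa was added (median log2 -0.23, -0.15, -0.28 and -0.18). These were 50%, 50%, 50% and 30% of the list, the last at the share of all genes. H19, a noncoding RNA that is a hallmark of fetal tissue, was at 43.0 ± 1.58 CPM in siCTRL and 22.3 ± 1.78 CPM in siCop1 in DMSO without Dexa (adjusted p 7.57e-06 by quasi-likelihood F-test in edgeR), and was lower in all 4 settings. Mest fell from 109 ± 1.04 to 67.9 ± 2.14 CPM (adjusted p 3.62e-12) and was lower in all 4. In the same setting Meg3, Grb10 and Plagl1 were also lower, Meg3 not with length and GC offsets (adjusted p 0.0701) and Plagl1 not without replicate 3 of siCTRL (0.0518). In KL001 with Dexa the count of 3 was 7 with no filter on low counts and 5 with corrections for length and GC content or in a fit on only the groups compared. With Dexa, Mest fell and Plagl1, a zinc finger growth regulator, rose in all 4 settings (Mest by 0.53 and Plagl1 higher by 0.42 on the log2 scale in siCTRL DMSO, adjusted p 4.42e-10 and 3.55e-07).

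Other nucleosome-binding and HMG box genes moved in both directions with siCop1 in the reported fit. Of 7 tested, 1 or 2 were higher and 2 lower in each setting (42.9%, 57.1%, 42.9% and 42.9% changed, above the shares of all genes). Hmgn3 fell in all 4, from 65.9 ± 4.47 to 39.3 ± 0.307 CPM in DMSO without Dexa (adjusted p 4.42e-12 by quasi-likelihood F-test in edgeR), and Hmgb2 fell in all 4, from 7.6 ± 0.173 to 5.51 ± 0.25 CPM (adjusted p 6.74e-05). These 2 falls held in each alternative, and the higher genes did not. Hmgn5 was lost in 7 of 12 alternatives in DMSO without Dexa, 10 with Dexa and 6 in KL001 with Dexa, DESeq2 among them each time. Hmgb3 in DMSO with Dexa was lost in 1 of 12, and Hmgb1 in KL001 without Dexa in 3. In DMSO with Dexa the count of 4 was 2 without siCop1 replicate 2. Among 12 protein partners of IGF2BP and m6A readers, siCop1 changed 1, 2, 4 and 1 in the same order of settings. These were 8.33%, 16.7%, 33.3% and 8.33%, below the shares of all genes in 3 settings and close to it in KL001 without Dexa. There the count of 4 was 1 without replicate 2 of siCTRL and 2 without replicate 2 of siCop1 or in a fit on only the groups compared. The count of 1 in DMSO without Dexa was 0 without replicate 2 of siCTRL or any 1 siCop1 library, and 3 with length and GC offsets. In KL001 with Dexa it was 0 without replicate 1 or 3 of siCTRL or 2 or 3 of siCop1, 2 with length and GC offsets and 3 in a fit on only the groups compared. Dhx9, a helicase, was higher in the first 3 settings (293 ± 7.94 to 318 ± 1.38 CPM in DMSO without Dexa, adjusted p 0.0369), and its call was lost in DMSO without Dexa without replicate 1 or 2 of siCTRL or any 1 siCop1 library (adjusted p up to 0.14) and in KL001 without Dexa without replicate 2 of siCTRL (0.0704). Pabpc1, the poly(A)-binding protein, was higher with KL001 in all 4 settings, by 0.14 to 0.16 on the log2 scale (951 ± 51.6 to 1051 ± 33 CPM in siCTRL without Dexa, adjusted p 0.011). Its call held in each alternative only in siCop1 with Dexa. With length and GC offsets it was lost in the other 3 settings. It was also lost without replicate 1 of either group in siCTRL without Dexa (and in a fit on only those groups), without DMSO replicate 1 or KL001 replicate 3 in siCTRL with Dexa, and without replicate 1 or 2 of either group in siCop1 without Dexa (adjusted p up to 0.172, 0.0746 and 0.134).

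Genes described as HMGA2 targets were counted next. The list assigns no direction of regulation, so a higher gene is not read as one that follows Hmga2. With siCop1, 3 of 10 were higher in each setting, and 1, 0, 2 and 1 were lower, so that 40%, 30%, 50% and 40% changed, in DMSO with Dexa no more than the share of all genes. Cdkn2a and Cdkn2b, inhibitors of the cell cycle, and Zeb1, a transcription factor of the mesenchymal state, were the 3 higher genes in all 4 settings of the reported fit (Cdkn2a 399 ± 31.5 to 450.5 ± 8.18 CPM, adjusted p 0.017, Zeb1 117 ± 9.46 to 131 ± 1.86 CPM, adjusted p 0.0101, in DMSO without Dexa, by edgeR's quasi-likelihood test). In that setting the count of 4 was 2 without siCTRL replicate 2. In DMSO with Dexa the count of 3 was 2 without any 1 library, losing Zeb1 without replicate 1 of siCTRL and Cdkn2a without each of the others (adjusted p up to 0.109 and 0.244), and 5 with length and GC offsets. In DMSO without Dexa, Cdkn2a was lost without replicate 2 or 3 of siCTRL or 1 of siCop1, and Zeb1 without replicate 1 of siCTRL. In KL001 without Dexa, Cdkn2a was lost without replicate 1 or 3 of either group, and Cdkn2b without replicate 1 of siCTRL or 1 or 3 of siCop1 or in a fit on only the groups compared. With Dexa in KL001, Zeb1 was lost without replicate 1 or 3 of either group. The call of Cdkn2b held in each alternative in the other 3 settings. In KL001 without Dexa the count of 5 was 3 without replicate 1 of siCTRL, without replicate 1 or 3 of siCop1, or in a fit on only the groups compared. With Dexa, Snai1 rose in all 4 settings (30.5 ± 0.773 to 47.0 ± 1.06 CPM in siCTRL DMSO, adjusted p 2.61e-11) and Cdkn2b fell in all 4 (137 ± 7.03 to 95.7 ± 1.28 CPM, adjusted p 3.07e-12).

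Cell cycle genes moved with KL001 in siCTRL cells, where Hmga2 was also higher, and their part in the level of Hmga2 was not tested. Of 6 genes, 2 were higher with KL001 in siCTRL without Dexa (Mcm2 131 ± 1.7 to 147 ± 3.57 CPM, adjusted p 0.00105, and Pcna 48.3 ± 0.736 to 56.0 ± 2.47 CPM, adjusted p 0.00814, by quasi-likelihood F-test in edgeR) and 3 with Dexa (Mcm2, Pcna and Top2a), Pcna not without replicate 2 or 3 of DMSO or 1 or 3 of KL001 (adjusted p up to 0.184). These were 33.3% and 50% of the list, against 6.73% and 10.6% of all genes. The count of 2 was 1 without siCTRL KL001 replicate 3 and 0 in a fit on only the groups compared. In siCop1 cells 0 of 6 passed with KL001 by edgeR and by DESeq2, and 1 without and 0 with Dexa passed at an unadjusted p below 0.05. KL001 there changed 4.09% of all genes without and 5.46% with Dexa. With siCop1, 0 of 6 were lower in DMSO without Dexa and 1 with Dexa (0% and 16.7%), and in KL001 3 without and 5 with Dexa (50% and 83.3%), the latter 3 without siCTRL replicate 3 or without any 1 of the 3 siCop1 libraries. With Dexa, where Hmga2 rose in each setting, 0 of 6 passed in any setting by edgeR or DESeq2, or at an unadjusted p below 0.05 in edgeR, although in siCTRL DMSO the count was 2 without replicate 1 and 1 without replicate 3 of the group without Dexa, and 1 with no filter. Of all genes, Dexa changed 23.7% to 26.8%.

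**Figure D3:**
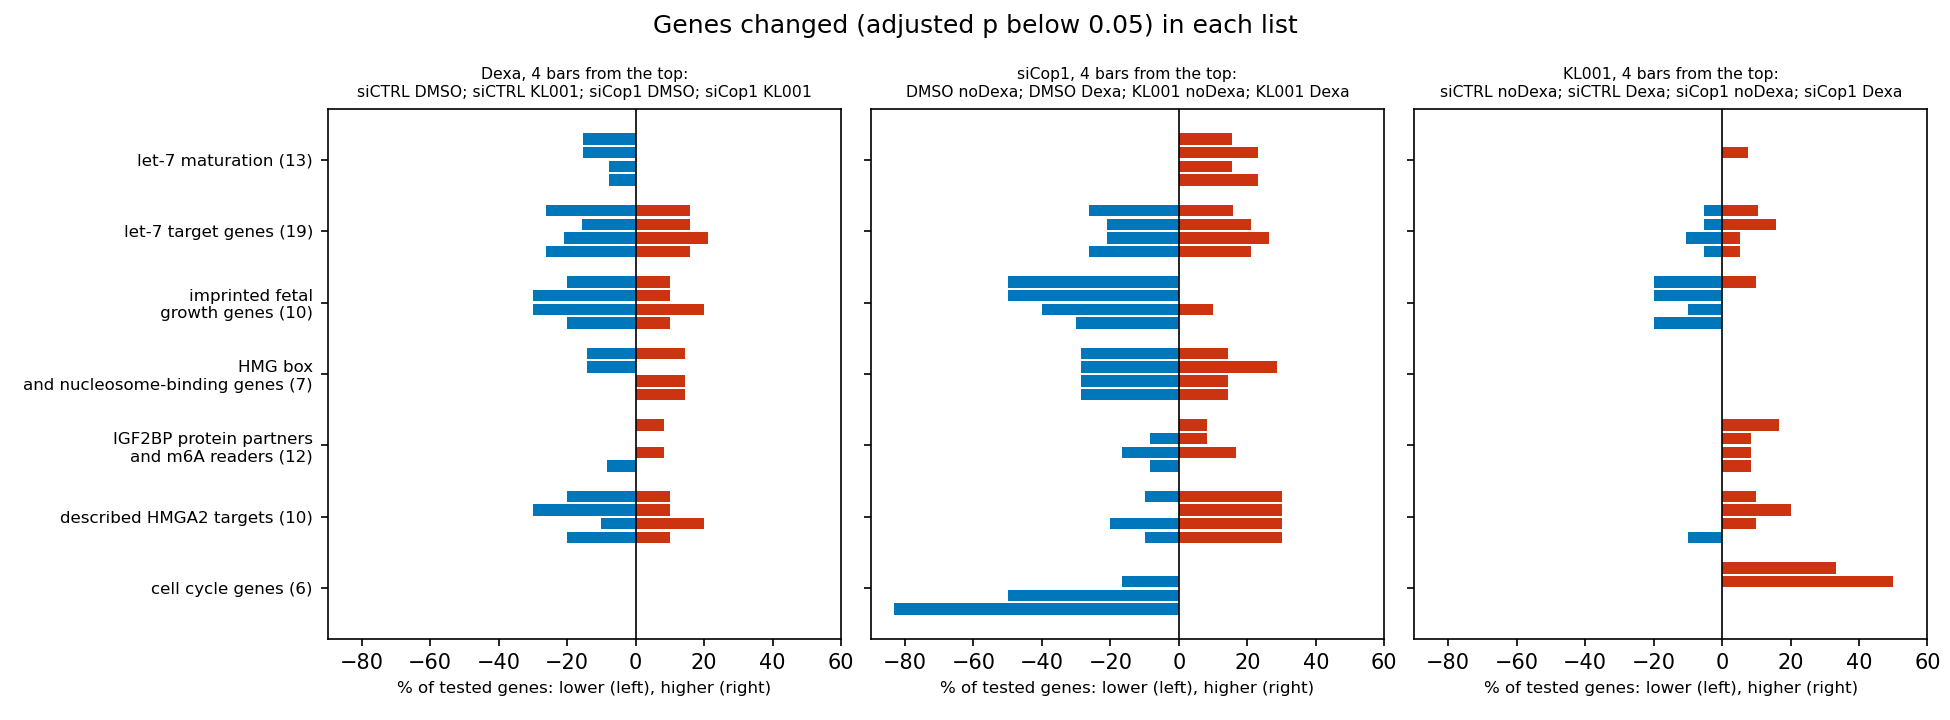
Share of the tested genes of each of the 7 lists (vertical axis, number tested in parentheses) that changed at an adjusted p below 0.05 (horizontal axis, percent; red to the right higher, blue to the left lower) with Dexa, siCop1 and KL001, with 1 bar per setting in the order given above each panel. With siCop1 the list of imprinted fetal growth genes lies mostly to the left, at 30% to 50% lower, and the let-7 maturation genes to the right, at 15.4% to 23.1% higher.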

How the data were processed

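mRNA libraries of 24 samples (8 groups of 3) were sequenced as single reads of 50 bases on 3 lanes from stranded libraries, per the labels' protocols. The authors deposited raw read counts per gene symbol and a normalized table (unit: signal). The submitters' processing notes name bcl2fastq 1.8.4, STAR 2.4.5a, Subread 1.4.6-p3, featureCounts, Picard 1.126 and DESeq2, and the builds GRCm38 and mm10, with no roles. Median-of-ratios factors (0.862 to 1.117) gave 100% of the deposited signal values from the counts within 0.011, and all tests used the counts. 0 columns were left unused, no libraries were identical, and replicates differed by more than sampling noise (chi-square per degree of freedom 1.6 to 9.27). The labels give no batch per library.

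In R 4.3.3, filterByExpr (minimum count 10, minimum total 15) kept 14772 genes, fitted with edgeR 4.0.16 (TMM, quasi-likelihood, robust, 1 mean per group, all 24 libraries; limma 3.58.1 installed). The biological coefficient of variation was 3.71%. Tests are two-sided with Benjamini-Hochberg adjustment over all genes, and "changed" means an adjusted p below 0.05. A statement that libraries separate or do not overlap is a description, and the share of all genes that separate is not given here. A 95% interval is the estimate ± 1.96 SE. Intervals and floors on counts cover counting error only, since PCR copies were not told apart. The script was tested on simulated data. The members and lists were chosen with earlier results of these data known. Beyond the 6 members and Rfwd2, named genes are list genes that passed, up to 4 per list with the largest change or those asked for by a count, and the 3 genes (5 for Hmga2) most correlated with each member by log2 CPM (prior count 2), without predicted genes (Gm), Rik clones and -ps pseudogenes (1 gene of this ranking is not reported here). Settings varied 1 at a time were RLE scaling, testing unfiltered genes, DESeq2 1.42.0, a block for the replicate number, only the groups compared, offsets for transcript length and GC content (splines with 4 degrees of freedom, GENCODE release M 21, 99.2% of tested genes matched), and leaving out each library.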

Additional observations from a re-analysis of the deposited data

How the results depend on the processing

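Hmga2 kept its Dexa call in all 4 settings under each alternative (largest adjusted p 8.09e-05), and 581 of 600 recomputed tests of the members, 658 of 660 untested member differences and 1836 of 2016 list values kept their verdict, with 0 reversed. For Igf2bp1 with Dexa, length and GC offsets gave 0.142 (adjusted p 0.00171 in edgeR) in siCTRL DMSO, and no filter 0.12 (0.0695) and DESeq2 0.128 (0.0582) in siCop1 KL001. Leaving out 1 library gave 0.057 to 0.159 in siCTRL DMSO, 0.116 to 0.18 in siCop1 DMSO and 0.083 to 0.171 in siCop1 KL001. For Igf2bp2 in siCop1 DMSO no filter gave -0.106 (0.0587) and leaving out 1 library -0.118 to -0.087, and in siCop1 KL001 length and GC offsets gave -0.078 (0.0177). The cause was not tested.

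Counts of genes changed with KL001 under length and GC offsets were 1581 and 2372 in siCTRL without and with Dexa and 982 and 1226 in siCop1 (994, 1560, 604 and 807 in the reported fit). In a fit on only the groups compared they were 225 in siCTRL without Dexa and 950 and 1435 in siCop1. Leaving out 1 library gave 653 to 1165, 928 to 1416, 421 to 461 and 502 to 611. For the siCop1 difference of the Dexa effect, 99 in DMSO and 83 in KL001, no filter gave 230 and 156, length and GC offsets 207 and 174, and the groups compared 52 in KL001. Leaving out 1 library gave 71 to 107 and 43 to 94. For the KL001 difference, 0 in siCTRL and 10 in siCop1, no filter gave 133 and 43 and length and GC offsets 7 and 24. DESeq2 gave 2 in siCTRL, RLE scaling 5 and the groups compared 24 in siCop1, and leaving out 1 library gave 0 to 3 and 1 to 7.

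With the replicate number as a block the last count was 5 in place of 10, and the block moved no other count by over 1.5 times and no member's call. Same-numbered libraries correlated above 0.1 in all 3 pairs in 2 of 12 comparisons (r -0.432 to 0.566 over all), so the numbers were not taken as pairs. Those 2 were Dexa in siCTRL KL001 (0.316 to 0.566) and KL001 in siCTRL with Dexa (0.185 to 0.527). In the labels, libraries of the same siRNA and number share a name prefix. The block joined the numbers of both siRNAs, and a block for these prefixes was not tried. Depth limits Lin28b, at 5 counts in all.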
